A study of Homo sapiens with 6 samples.

Results

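Regions called open by ATAC-seq in the leukemia line RCH, and in neither RS4;11 nor SEM, are described here. The 12 deposited peak lists were merged on chromosomes 1 to 22 wherever peaks shared at least 1 bp, and a merged region was chosen by its peak calls: all 4 RCH lists and none of the 8 lists of the other lines had to have a peak in it. This left 1146 of 126189 regions, or 0.908%, called RCH-only regions below. The same rule gave 2548 RS4;11-only regions (2.02%) and 1221 SEM-only regions (0.968%). This order of the lines did not hold with lists of equal length, which gave 1320 RCH-only, 1214 RS4;11-only and 1079 SEM-only regions. Since the members were selected on those calls, these counts describe the lists and carry no test. In position, 27.3% of the RCH-only regions lay within 5 Mb of a chromosome end, against 12.5% of all regions with a peak in the 4 RCH lists, and 10 of them stood in a single stretch of chromosome 10 without a peak of the other lines.

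The series holds 6 samples from 3 B-lineage acute lymphoblastic leukemia lines, namely RCH sh2, RCH NT, RS4;11 sh2, RS4;11 NT, SEM sh2 and SEM NT. The label sh2 stands for an shRNA against NSD2, a methyltransferase that acts on lysine 36 of histone H3, and NT for a non-targeted control shRNA. RCH is read here as RCH-ACV, the name in the growth protocol, and all lines were kept in RPMI1640 with fetal serum. Each sample came with 2 peak lists, read as 2 libraries, and nothing says that they came from separate cultures. There was thus 1 sample per line and shRNA, with a single hairpin. RCH-only regions have peak values in RCH alone, so sh2 and NT were compared there without a test, and the lines were compared by description, since the rule used that contrast.

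In ATAC-seq the Tn5 transposase cuts DNA that is not covered by nucleosomes, so a peak marks a promoter, an enhancer or another exposed element. Promoters tend to be open in many cell types, whereas distal elements vary most between them. Genes were not assigned to the regions, so neither the marker genes of the labelled tissue, bone marrow, nor NSD2 itself was checked. All coordinates are hg19 and count from 1.

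The lists held 40506 to 81527 autosomal peaks, and the RCH sh2 lists were the shortest with 43043 and 40506. The RCH NT lists held 54740 and 55364, the RS4;11 lists 59502 to 81527 and the SEM lists 52301 to 62120. How many reads lie behind each list is unknown. Absence from a list therefore means that no peak was called, not that the DNA was closed.

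Peaks in the RCH-only regions were of modest height. Each deposited peak value was taken as fold enrichment over the same library's background. Its median over the RCH-only regions was 5.03 and 4.88 in the RCH sh2 lists and 6.49 and 6.06 in the RCH NT lists. Over all 27235 regions with a peak in the 4 RCH lists it was 6.78 and 6.496 with sh2 and 8.47 and 8.38 with NT, so the RCH-only regions had the lower median in each list. Low height was not particular to them. Values were also ranked within each list, as percentiles among the 27235 regions, and averaged over the 4 lists. The median of this mean rank was 23.8 for RCH-only regions. It was 24.3, 24.4 and 25.1 for regions with a peak in 1, 2 and 3 other lists, and 56.3 with all 8. Single values of RCH-only regions ran from 2.36 to 14.8 in RCH sh2 library 1 and from 2.65 to 19.6 in RCH NT library 1. Heights agreed more closely between the 2 libraries of a sample than between the sh2 and NT samples. With 1 sample per shRNA, shRNA and sample cannot be told apart here. The rank correlation of values across the RCH-only regions was taken as Spearman's rho (n = 1146 regions of shared libraries). It was 0.672 between the sh2 libraries, 0.736 between the NT libraries and 0.517 to 0.549 between sh2 and NT. Over all 27235 regions with a peak in the 4 RCH lists the same pattern held at higher values. There rho was 0.868 between the sh2 libraries, 0.860 between the NT libraries and 0.721 to 0.748 between sh2 and NT.

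**Figure D1:**
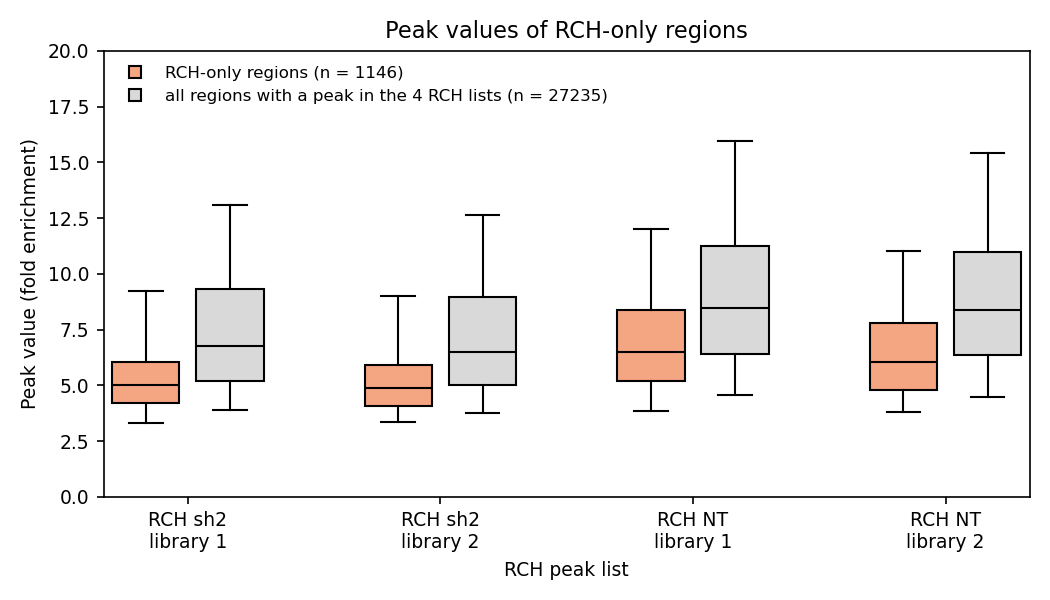
Peak values (fold enrichment, vertical axis) in the 2 RCH sh2 and 2 RCH NT lists, for the 1146 RCH-only regions (orange) and all 27235 regions with a peak in the 4 RCH lists (grey). Lines mark medians, boxes the 25th to 75th percentile and whiskers the 5th to 95th percentile. In every list the orange median, 4.88 to 6.49, lies below the grey one, 6.496 to 8.47.

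In width the RCH-only regions lay between the merged set and the shared regions. A merged region spans all peaks joined in it, so its width depends in part on how many lists it joins. Their median width was 496.5 bp, against 360 bp over all merged regions and 836 bp for the 20934 regions open in all 12 lists. RS4;11-only and SEM-only regions had medians of 409 and 462 bp. Regions with a peak in the 4 RCH lists and in 1, 2 or 3 others had 489.5, 467 and 494 bp. Single peaks inside RCH-only regions had a median width of 326 and 319 bp with sh2 and 383 and 348 bp with NT. Inside all regions with a peak in the 4 RCH lists, the medians were 408 and 400 bp with sh2 and 449 and 446 bp with NT. In 131 of the 1146 regions (11.4%) the value lay above the pooled median of all lists, 6.37, in each of the 4 RCH lists, against 43.1% of all regions with a peak in the 4 RCH lists.

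The rule cuts through a continuum of calls. Of the 27235 regions with a peak in the 4 RCH lists, 4.21% had no peak elsewhere, 312 had a peak in 1 of the 8 other lists, and 20934 had one in all 8. Among regions with no peak elsewhere, 1005 had a peak in 3 RCH lists, 2363 in 2 and 11109 in 1. Of the 1005, the missing peak was that of RCH sh2 library 2 in 376, NT library 2 in 208, NT library 1 in 115 and sh2 library 1 in the rest, so the shorter sh2 lists lacked it more often. The weakest RCH-only region by mean rank, on chromosome 2 from 232536532 to 232537050, had values of 2.98 and 2.38 with sh2 and 3.06 and 2.51 with NT, and lay 0.072 kb from a region open in all 12 lists. Such weak calls beside a shared region were part of the set, and 125 of the 1146 regions (10.9%) had a peak of another line within 1 kb. Just outside the rule, the strongest region was on chromosome 7 from 81015691 to 81016315, with 11.6 and 11.9 with sh2 and 16.2 and 13.8 with NT. It was left out for a single peak of 4.08 in RS4;11 NT library 1. The next was on chromosome 4 from 6271188 to 6271729, with 12.4 and 12.5 with sh2 and 15.4 and 12.2 with NT, left out for a peak of 4.44 in SEM sh2 library 1. Both would have stood among the strong RCH-only regions, and the peak that left each out was low.

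The 10 RCH-only regions of highest mean rank were spread over several chromosomes. Ranks are percentiles of the value within a list, among the regions with a peak in the 4 RCH lists. The highest lay on chromosome 12 from 133463852 to 133464682, with values of 14.8 and 12.7 in RCH sh2 and 14.4 and 14.8 in RCH NT, and a mean rank of 94.5. A neighbour on the same chromosome, from 133484891 to 133485604, was also among the 10, with 12.8 and 14.2 with sh2 and 15.3 and 13.3 with NT. In both regions the sh2 and NT values overlapped, while by rank within each list both sh2 libraries stood above both NT libraries. They stood 0.294 and 0.273 Mb from the last peak of the long arm, and the nearest peak of another line was 57.9 and 46.6 kb away.

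On chromosome 13 the region from 20138889 to 20139539 had 13.5 and 11.4 with sh2 and 18.7 and 14.5 with NT. The chromosome 2 region from 139293785 to 139294593 had 12.02 and 11.3 with sh2 and 18.02 and 16.8 with NT. On chromosome 7, 12.8 and 11.2 with sh2 stood against 17.1 and 15.8 with NT from 133811664 to 133812429. In all 3 both sh2 values lay below both NT values. By rank this order held on chromosomes 2 and 7, and on chromosome 13 the libraries overlapped. A further chromosome 7 region, from 16890519 to 16891164, had 12.8 and 9.82 with sh2 and 15.9 and 15.7 with NT, with a peak of another line 0.318 kb away.

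A pair of the 10 came from a short stretch of chromosome 19. From 21182439 to 21183259 the values were 14.4 and 9.62 with sh2 and 19.6 and 18.3 with NT. From 22034426 to 22035160 they were 13.4 and 10.4 with sh2 and 17.8 and 14.7 with NT. The first holds the highest single value of an RCH-only region, 19.6. On chromosome 16 from 35032982 to 35033737 the values were 12.2 and 11.4 with sh2 and 15.6 and 14.3 with NT. This was the most isolated of the 10, 1069 kb from any region that all 12 lists shared. The chromosome 3 region from 146186847 to 146187851 had 11.7 and 13.01 with sh2 and 14.4 and 13.5 with NT.

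RCH-only regions were frequent near chromosome ends. Of the 1146 regions, 313 (27.3%) lay within 5 Mb of a chromosome end, 134 on short and 179 on long arms. The share was 7.85% for RS4;11-only regions, 10.1% for SEM-only regions, 11.3% for regions open in all 12 lists and 12.5% for all regions with a peak in the 4 RCH lists. Ends were the first and last base under a peak of any list, and on the acrocentric chromosomes 13, 14, 15, 21 and 22 the long-arm end alone was used. The 95% exact binomial interval of the RCH-only share was 24.8 to 29.99%, which covers counting error over regions and not the spread between lines.

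Read the other way round, 9.06% of the regions with a peak in the 4 RCH lists were RCH-only within 2 Mb of an end and 9.36% from 2 to 5 Mb. The share was 5.07% from 5 to 10 Mb, 4.26% from 10 to 20 Mb and 3.08% beyond. For RS4;11 the corresponding shares were 4.06%, 4.83%, 5.74%, 5.63% and 5.82%, and for SEM 3.14%, 3.30%, 3.65%, 3.50% and 3.26%. The decline away from the ends was thus seen in RCH, whereas RS4;11 had its lowest share at the ends and SEM varied by less than 1 percentage point.

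**Figure D2:**
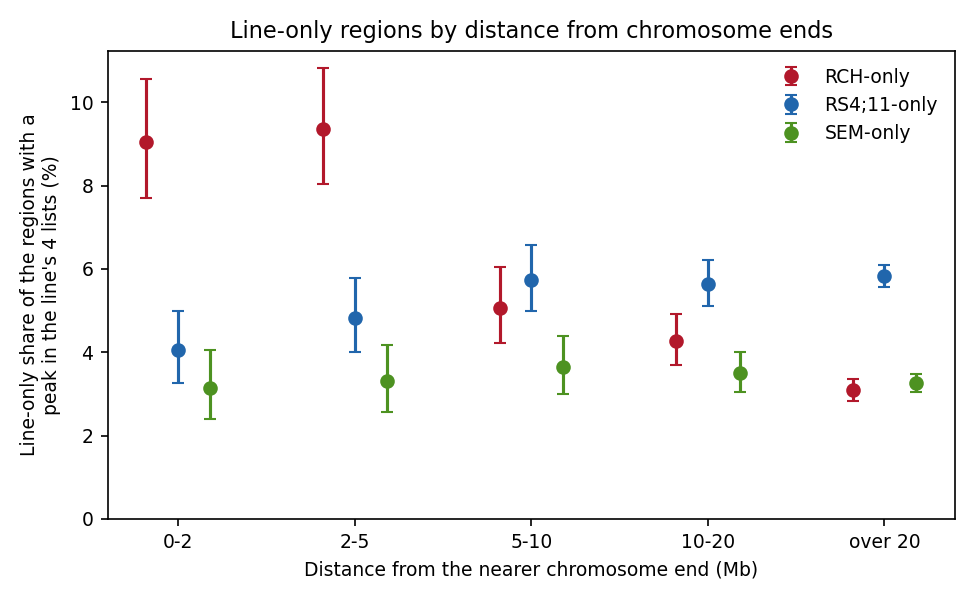
Share of the regions with a peak in all 4 lists of a line that had no peak in the other lines (vertical axis, %), by distance from the nearer chromosome end (horizontal axis, Mb), for RCH, RS4;11 and SEM. Points are shares and bars 95% exact binomial intervals; RCH stands at 9.06% and 9.36% in the 2 bins nearest the ends and at 3.08% beyond 20 Mb.

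Regions near an end had lower values than the other RCH-only regions. Their median was 4.89 and 4.76 with sh2 and 5.88 and 5.45 with NT, against 5.07 and 4.93 with sh2 and 6.83 and 6.22 with NT elsewhere. The gap was wider in the NT libraries, and it had no test. It was not particular to RCH-only regions. Over all regions with a peak in the 4 RCH lists, the median rank near an end was 42.7 with sh2 and 34.1 with NT. Elsewhere it was 49.6 and 51.7. For RCH-only regions the median ranks were 20.0 and 19.2 near an end, against 22.9 and 27.6.

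The share near an end also followed how widely a region was shared. Among regions with a peak in the 4 RCH lists it was 18.9% with 1 other list, 15.4% with 4 others and 11.3% with all 8. Among regions with no peak elsewhere it was 21.5% with 3 RCH lists, 16.1% with 2 and 12.03% with 1. The 1830 regions with a peak in all 8 other lists and none in RCH had 9.18%.

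List composition moved with this result. Of all peaks of a list, 13.2% and 13.6% lay near an end in RCH sh2 and 10.5% and 10.2% in RCH NT, against 8.23% to 10.4% in the RS4;11 and SEM lists. With the NT lists alone the RCH-only share near an end was 17.1%, against 5.13% for RS4;11-only and 14.4% for SEM-only regions. With the sh2 lists alone it was 25.5%, against 9.59% and 5.82%. The part of list composition in the result was not tested. In each of the 26 settings run, the RCH-only share was above those of the RS4;11-only, SEM-only and shared regions that the setting gave; 3 settings, without RS4;11, without SEM and with regions built from RCH lists, lacked 1 or both of the other lines' classes.

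Single ends differed. Of 39 ends, 38 held at least 1 RCH-only region, and in 21 of 22 chromosomes the RCH-only regions had a larger share near an end than all regions with a peak in the 4 RCH lists. Chromosome 20 was the exception, with 14.3% against 24.3%. Some of the 21 were near ties, such as chromosome 19 with 25.4% against 24.9%. RCH-only regions outnumbered RS4;11-only regions at 23 ends and were fewer at 11. They outnumbered SEM-only regions at 28 ends and were fewer at 7. The short-arm end of chromosome 8 had 23 RCH-only regions among 79 with a peak in the 4 RCH lists (29.1%), beside 1 RS4;11-only and 4 SEM-only regions. The long-arm end of chromosome 10 had 18 of 74 (24.3%), beside 8 and 3. The long-arm end of chromosome 4 had 10 of 42 (23.8%) and the short-arm end of chromosome 5 had 16 of 69 (23.2%). By contrast, the long-arm end of chromosome 1 had 0 of 64, which leaves a share of up to 5.60% by the exact interval. The short-arm end of chromosome 6 had 1 of 57. The long-arm end of chromosome 15 had 4 of 73, beside 16 RS4;11-only regions and 1 SEM-only region.

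Some of the RCH-only regions stood together. A further RCH-only region lay within 100 kb for 27.7% of them, and 829 stood alone at that distance. A further region of the same class lay that near for 36.0% of the 2548 RS4;11-only and 16.7% of the 1221 SEM-only regions. There were 11 clusters of 4 or more, and 10 of these lay wholly within 5 Mb of an end. The exception was on chromosome 20 from 17511410 to 17634283, with 4 regions. Of the single regions, 18.7% lay near an end, and of those in clusters 49.8%. After chromosome 10, described next, the largest clusters held 7 regions over 179 kb near the long-arm end of chromosome 4, 6 over 119 kb near the short-arm end of chromosome 2 and 6 over 246 kb near the long-arm end of chromosome 7. Peaks of other lines lay between the regions of these 3 clusters, in 7, 14 and 10 regions. With each cluster counted once by its first region, the share near an end was 22.1%. It was counted in this way for RCH-only regions alone, so it has no counterpart in the other lines.

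The run with most RCH-only regions and no peak of another line among them was on chromosome 10, with 10 regions from 132889370 to 133218910, a span of 330 kb. Between a peak that ended at 132842064 and the next, which began at 133252037, no RS4;11 or SEM list had a peak. This gap of 410 kb held 10 regions with a peak in the 4 RCH lists, which were RCH-only by the rule. A further 13 regions in the gap had a peak in 1 to 3 RCH lists. The run lay 2.28 to 2.61 Mb from the last peak of the long arm. A run of 4 RCH-only regions on chromosome 5, from 2751701 to 3103016, spanned slightly more, 351 kb. The fullest such runs of the other lines held 5 regions in RS4;11 and 4 in SEM.

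Within this run the strongest region, from 133036979 to 133037510, had values of 5.48 and 6.03 with sh2 and 8.88 and 8.84 with NT. Its neighbour from 133028262 to 133028676 had 3.86 and 4.64 with sh2 and 8.94 and 6.38 with NT, and the widest region, from 133001286 to 133002302, had 6.40 and 5.86 with sh2 and 7.62 and 6.71 with NT. In all 3 both sh2 values lay below both NT values. By rank within each list the first 2 kept this order, whereas in the widest region both sh2 ranks lay above both NT ranks. At the far edge, from 133218279 to 133218910, the values were 5.64 and 5.46 with sh2 and 4.46 and 4.78 with NT, higher in sh2 by value and by rank. The run thus had no single order between sh2 and NT. Mean ranks of the 10 regions were 11.4 to 45.7, so none was strong, and none of the 10 remained when only peaks above the pooled median were kept. With lists of equal length, 7 RCH-only regions remained in the span.

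**Figure D3:**
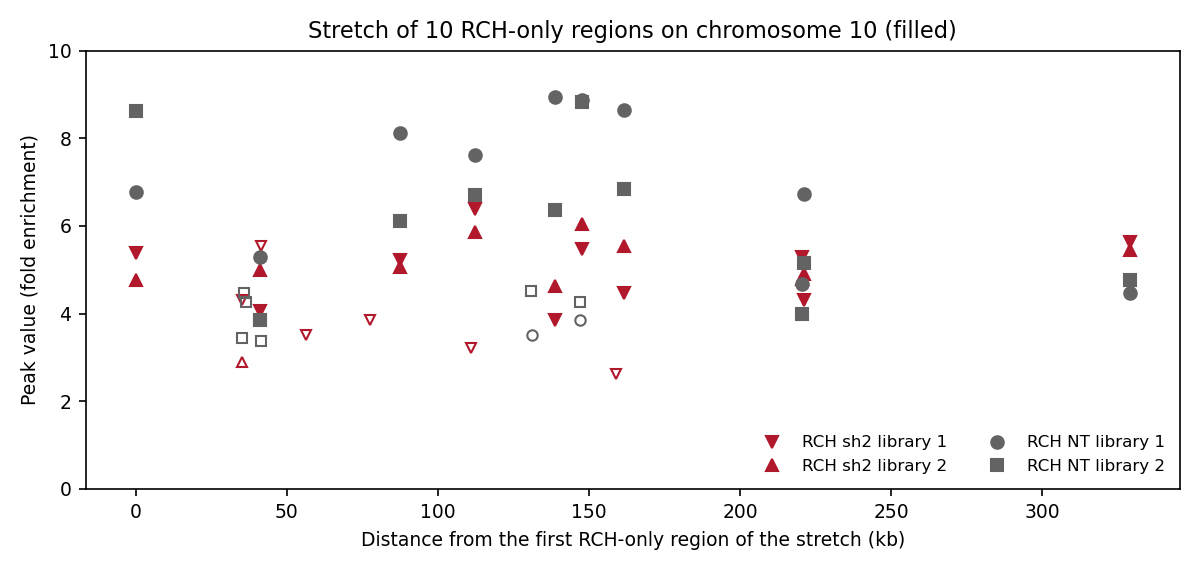
Peak values (fold enrichment, vertical axis) of the regions in the chromosome 10 run, by distance from its first RCH-only region (horizontal axis, kb). Filled symbols are the 10 RCH-only regions and open ones regions with a peak in 1 to 3 RCH lists; red triangles are the RCH sh2 libraries and grey circles and squares the RCH NT libraries. The highest values, 8.94 and 8.88, belong to RCH NT library 1 near the middle.

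Bins of 1 Mb showed the same places. Of 2727 bins with any region, 740 held an RCH-only region and 19 held at least 5. The bin of chromosome 10 that ends at 134 Mb held the most, 9 of the 15 regions with a peak in the 4 RCH lists. The other lines had similar maxima in a bin, 10 RS4;11-only and 8 SEM-only regions. Bins at 187 to 188 Mb of chromosome 4 and at 157 to 158 Mb of chromosome 7 held 8 of 14 each. Those at 2 to 3 Mb of chromosome 1, at 0 to 1 Mb of chromosome 7 and at 2 to 3 Mb of chromosome 8 held 7 each, of 22, 22 and 14. The RCH-only regions of all 6 bins lay within 3.39 Mb of an end, and together they held 3 RS4;11-only regions and 1 SEM-only region. The strongest regions there were on chromosome 4 from 187741472 to 187742094, with 7.56 and 9.07 with sh2 and 10.9 and 7.68 with NT, and on chromosome 8 from 2591088 to 2591569, with 7.81 and 6.94 with sh2 and 12.3 and 8.01 with NT. By rank, sh2 and NT libraries overlapped in both regions.

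By chromosome, the RCH-only share of the regions with a peak in the 4 RCH lists was highest on chromosome 7, at 6.51% (96 of 1475, interval 5.30 to 7.89), and on chromosome 20, at 6.08% (42 of 691, 4.42 to 8.13). It was lowest on chromosome 6, at 2.43% (39 of 1607, 1.73 to 3.30). Chromosome 8 had 5.49% and chromosome 19 had 5.07%. Away from the ends, chromosome 20 had 6.88%, chromosome 7 had 5.07% and chromosome 8 had 3.67%. Copy number was not measured. At regions open in all 12 lists, the median rank of chromosome 7 within a list was 53.9 to 57.5 in RCH, 55.4 to 57.5 in RS4;11 and 49.95 to 53.7 in SEM, and its part in the result was not tested.

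**Figure D4:**
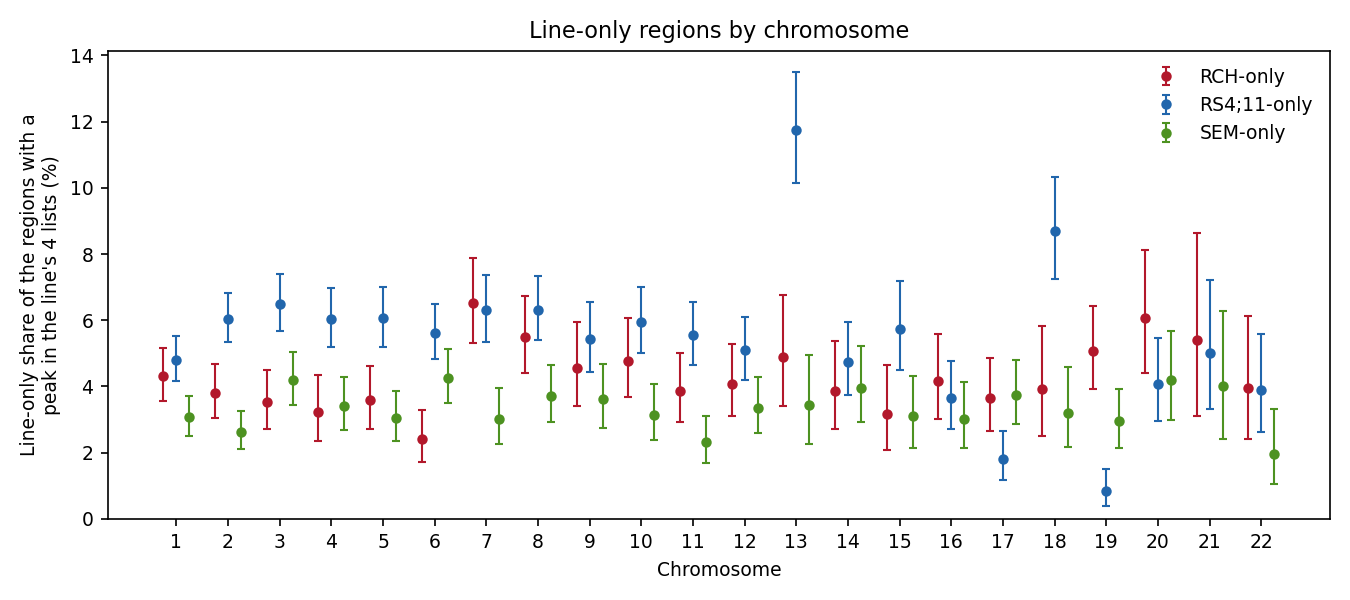
Share of the regions with a peak in all 4 lists of a line that had no peak in the other lines (vertical axis, %), by chromosome (horizontal axis), for RCH, RS4;11 and SEM, with 95% exact binomial intervals. RCH stands highest on chromosome 7 at 6.51% and lowest on chromosome 6 at 2.43%; on chromosome 19 RCH stands at 5.07%, RS4;11 at 0.829% and SEM at 2.95%.

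Chromosome 19, which carries large clusters of zinc finger genes, held 63 RCH-only regions, against 10 RS4;11-only and 44 SEM-only regions. Their median mean rank was 32.6, against 23.8 over all RCH-only regions. The difference in medians lay in the sh2 libraries, with a median rank of 39.1, against 22.4 over all RCH-only regions. In NT the median rank was 23.7, against 24.3. The 75th percentile of rank was higher on chromosome 19 in NT too, at 59.5 and 52.0, against 49.0 and 42.9 over all RCH-only regions. The sh2 libraries ranked chromosome 19 higher in general: at its regions open in all 12 lists the median rank was 58.1 and 56.5 in RCH sh2 and 37.7 and 36.1 in RCH NT. Of the 115 strongest RCH-only regions (the highest 10% by mean rank), 16 (13.9%) were on chromosome 19. That chromosome held 5.50% of all RCH-only regions and 4.56% of all regions with a peak in the 4 RCH lists. Its share among the highest 10% of the latter was not taken, so the 13.9% has no background. The window from 20 to 25 Mb held 8 RCH-only regions among 36 with a peak in the 4 RCH lists (22.2%), and 7 of the 8 were in the highest 10%. No RS4;11-only or SEM-only region was found there. Besides those already named, the region from 21751864 to 21752549 had 10.5 and 10.8 with sh2 and 18.1 and 14.9 with NT, and that from 20162677 to 20163535 had 11.2 and 10.9 with sh2 and 16.8 and 13.1 with NT. In both, the sh2 values lay below the NT values, and by rank this held for the first, with overlap in the second. The last 5 Mb window, from 55 to 60 Mb, held 8 RCH-only regions, 4 of them in the highest 10%, and again no RS4;11-only or SEM-only region. There the region from 58545105 to 58545752 had 11.3 and 11.3 with sh2 and 12.3 and 14.04 with NT. Chromosome 19 held 4.84% and 4.89% of the peaks in RCH sh2, 3.19% and 3.09% in RCH NT, 2.07% to 2.86% in RS4;11 and 3.09% to 3.89% in SEM. Its part in the result was not tested.

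The nearest region open in all 12 lists lay at a median distance of 40.7 kb (interval 37.3 to 44.6), against 40.5 kb over all merged regions, 27.6 kb for all regions with a peak in the 4 RCH lists, 40.7 kb for SEM-only and 33.6 kb for RS4;11-only regions. The RCH-only median became 82.8 kb with coverage of at least 50% of the region and 113 kb with only peaks above the pooled median. Beyond 100 kb lay 295 RCH-only regions (25.7%), against 27.8% of all merged regions and 16.5% of those with a peak in the 4 RCH lists. The highest 10% by mean rank stood farther out, with a median of 61.99 kb, and the lowest 10% nearer, with 14.7 kb. Width followed, with medians of 667 and 439 bp. The nearest peak of any RS4;11 or SEM list was at a median of 7.97 kb and at most 314 kb. One region, on chromosome 9 from 21841447 to 21841836, lay 1984 kb from the nearest RS4;11 peak but 7.73 kb from a SEM peak, and was picked out after its values were seen. Its values were 5.35 and 4.76 with sh2 and 5.34 and 9.33 with NT. It was the only RCH-only region over 1 Mb from an RS4;11 peak, and none was that far from a SEM peak.

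The next comparison asked whether RCH-only regions differed in height between NSD2 knockdown and control. The rule asks for a peak in all 4 RCH lists but makes no use of the order of their values. In 26.9% of the 1146 regions (interval 24.3 to 29.5) both sh2 ranks lay below both NT ranks, against 25.4% of all regions with a peak in the 4 RCH lists. In 258 (22.5%, 20.1 to 25.04) both sh2 ranks lay above both NT ranks, against 28.4%. In the other 580 the libraries overlapped. The first share was near the background and the second lay below it. These intervals cover counting error over regions of the same 4 libraries and not the spread between samples. They do not test sh2 against NT. The first share depended on the processing. It was 29.5% (27.1 to 32.1) with lists of equal length, 31.3% (28.4 to 34.4) with coverage of at least 50% of the region, 29.5% (27.6 to 31.5) without RS4;11 and 28.6% (26.6 to 30.7) without SEM, against 25.4% to 25.6% of all such regions. Without RCH NT library 1 it was 35.3%, against 36.9%, and without RCH NT library 2 it was 42.8%, against 36.8%, so the direction relative to all regions turned with the library left out. The values themselves were lower in both sh2 libraries at 654 regions (57.1%), against 59.4% of all such regions, and higher at 57 (4.97%), against 6.39%. Values were lower in RCH sh2 on the whole, with a median log2 ratio of sh2 over NT of -0.31 for RCH-only regions and -0.28 for all regions with a peak in the 4 RCH lists.

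**Figure D5:**
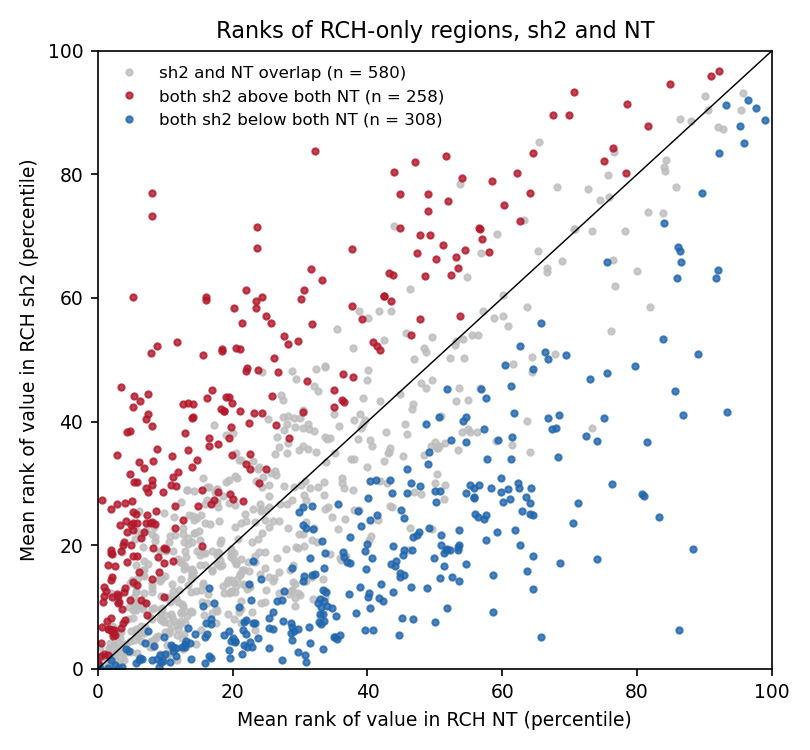
Mean rank of the peak value (percentile among regions with a peak in the 4 RCH lists) in RCH sh2 (vertical axis) and RCH NT (horizontal axis), 1 point per RCH-only region. Red points, 258 in number, had both sh2 ranks above both NT ranks, blue points both below, and grey points, 580 in number, overlapped. Most regions lie at low ranks in both conditions.

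The order of ranks differed with place. Near chromosome ends, 18.5% of the 313 RCH-only regions had lower and 28.4% higher sh2 ranks, against 15.5% and 41.9% of all regions with a peak in the 4 RCH lists there. Elsewhere, 30.0% of the 833 had lower and 20.3% higher sh2 ranks, against 26.8% and 26.5%. On chromosome 19, 15.9% of the 63 had lower and 46.0% higher sh2 ranks, against 6.76% and 60.9% of all such regions of that chromosome. In each of the 3 places, RCH-only regions had a smaller share with higher sh2 ranks than all regions there. Their share with lower sh2 ranks was larger. The places are not separate, since each chromosome 19 region also counts as near an end or elsewhere. Library composition moved with place: at regions open in all 12 lists, the median rank near chromosome ends was 45.1 and 46.4 in RCH sh2 and 34.8 and 33.9 in RCH NT, and chromosome 19 differed in the same direction, as given above. Its part in the order was not tested. With 1 sample per shRNA, the difference was not tested.

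A few regions differed widely in rank. On chromosome 18 from 11236964 to 11237410 the values were 3.94 and 3.92 with sh2 and 13.4 and 12.7 with NT, a mean rank of 6.32 with sh2 and 86.2 with NT. On chromosome 2 from 58077366 to 58078221 they were 5.88 and 3.50 with sh2 and 13.97 and 13.1 with NT. On chromosome 22 from 17442335 to 17442850 they were 3.34 and 4.08 with sh2 and 9.89 and 10.1 with NT. These were the largest differences with lower sh2 ranks, and the libraries of sh2 and NT lay far apart in each. In the other direction, the chromosome 12 region from 2861814 to 2862173 had 9.01 and 9.84 with sh2 and 4.58 and 5.11 with NT, a mean rank of 77.1 with sh2 and 8.09 with NT. The chromosome 16 region from 9023172 to 9023591 had 8.42 and 9.51 with sh2 and the same NT values, 4.58 and 5.11. The chromosome 7 region from 1619142 to 1619592 had 7.39 and 7.61 with sh2 and 4.20 and 4.77 with NT. They were chosen as the extremes of 1146 regions, so their differences carry no test.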

How the data were processed

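ATAC-seq peak lists of 6 samples were used, 2 lists of 5 columns per sample. Per the submitters' processing notes, MACS2 and Bowtie2 were used with build hg19. Their versions and settings, read filtering and read totals were not given, so each value's depth is unknown. The value the authors deposited with each peak was read as a ratio (fold enrichment). This is inferred from the values, of which 8.85% to 24.4% per list fell on whole multiples of the step between the commonest values (tolerance 0.0002), the form of a pileup divided by a constant background. It is not normalized between lists.

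Chromosomes X and Y were left out (23490 peaks, against 695442 kept). A region's value in a list was the highest of that list's peaks in it. Since values are not comparable between lists, sh2 and NT were compared by rank within each list. Named regions are the 10 of highest mean rank, the 3 with most and the 3 with least sh2 over NT rank, regions just inside and outside the rule, the highest of the fullest 1 Mb bins (6, with ties for the fifth) and the run with most members. The members and lists were chosen with earlier results of these data known. Distance to chromosome ends, clusters, the highest 10% and chromosome 19 windows were chosen after seeing the data. Intervals are exact binomial (Clopper-Pearson, for medians by order statistics) at 95%. The steps were tested on simulated lists. No genome of the build was used, so the planned gene lists, marker genes and motifs were not analysed here and no sequence is shown. Overlaps were checked with bedtools 2.31.1; values came from pandas 2.3.3 and numpy 2.4.6 in Python 3.11.15, intervals from scipy 1.17.1 and plots from matplotlib 3.10.9.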

Additional observations from a re-analysis of the deposited data

Results flagged for a closer look

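Chromosome X was outside the rule, and 17 of its 751 regions with a peak in the 4 RCH lists had no peak in the other lines (2.26%, exact 95% interval 1.32 to 3.60). They were picked out because no comparison above uses that chromosome. RS4;11-only regions made up 111 of 1552 there (7.15%, 5.92 to 8.55) and SEM-only regions 32 of 1098 (2.91%, 2.002 to 4.09).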

How the results depend on the processing

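The number of RCH-only regions stayed within 1.5 times of 1146 under 17 of 23 alternatives, with 1164 to 1526 when 1 library was left out. It was 212 with only peaks above the pooled median value, 2151 with at least 3 RCH lists, 2220 without RS4;11, 1903 without SEM, 3591 with the NT lists alone and 2453 with the sh2 lists alone. Fewer lists or a laxer rule admit more regions by construction. With lists of equal length the number was 1320, beside 1214 RS4;11-only and 1079 SEM-only regions. With only peaks above the pooled median, RS4;11-only regions numbered 2521 and SEM-only regions 573. The order of the lines thus depended on the setting.

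The share near a chromosome end was 20.1% with lists of equal length (40506 peaks each), 18.9% with the stricter value, 24.6% with at least 3 RCH lists, 22.4% without RS4;11, 21.9% without SEM, 17.1% with NT lists alone, 12.8% within 2 Mb and 37.6% within 10 Mb, and 24.8% to 28.2% with 1 library left out. With equal lists RS4;11-only, SEM-only and shared regions had 8.24%, 7.32% and 9.92%.

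The share with both sh2 ranks below both NT ranks was 29.5% with equal lists and 31.3% with 50% coverage of the region (25.6% and 25.4% of all regions with a peak in the 4 RCH lists), 57.1% for values in place of ranks, and 26.6% to 42.8% with 1 library left out. The upper part of that range comes from settings without an RCH library, in which fewer values must be in order (36.6% to 36.9% of all such regions).

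The median distance to regions open in all lists was 53.6 kb with equal lists, 113 kb with the stricter value, 82.8 kb with 50% coverage, 35.2 kb without RS4;11, 32.9 kb without SEM, 35.7 kb with NT lists alone, 31.2 kb with sh2 lists alone and 37.3 to 41.2 kb with 1 library left out. All alternatives for the share near an end were chosen after seeing the data. For order and distance, so were all except equal lists, the stricter value, 50% coverage, leaving out an RCH library and, for order, values in place of ranks. For these moves the cause was not tested. The alternatives for motifs and gene lists were not run, since no genome of the build was used. No paired analysis was possible because the RCH-only regions have values in RCH alone, which gives 1 pair of sh2 and NT samples, and no result comes from a test. Read depth is unknown and limits every absence of a peak.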
